A study of Mus musculus with 6 samples.

Results

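Axl, Mertk and Tyro3 are the receptor tyrosine kinases of the TAM family, and Gas6 and Pros1 encode their ligands. These 5 of the 31053 genes in the matrix were selected by symbol as the members of this receptor and ligand family. They were followed as raw UMIs (unique molecular identifiers, 1 per captured transcript) across groups of cells gated on marker genes and, within microglia, across bins of Apoe, given as the percent of a cell's UMIs. Single-cell RNA sequencing had been run on CD45+ cells sorted from the tumor-bearing hemisphere of female SCID mice, which lack T and B cells. The mice had received 50000 cells of the human glioma line U87 in the brain. In 3 mice the U87 cells expressed IL-33, and cells were taken 3 weeks after implantation. In the 3 control mice they carried pcDNA, and cells were taken 6 weeks after implantation. Mice were 8 weeks old at implantation per the protocol, whereas another label gives 6 to 8 weeks. The 6 libraries are marked in the matrix only by a barcode suffix, and groups were taken from the GEO labels alone, which do not tie a suffix to a mouse. The library statistics of the study were not used to assign them. IL-33 and control tumors were not compared here, the cells of both were pooled, and libraries are given as ranges without p-values.

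TAM receptors let phagocytes take up dying cells. Gas6 and Pros1 bind phosphatidylserine on the surface of a dying cell with one end and a TAM receptor with the other, and both need vitamin K-dependent carboxylation to do so. Gas6 activates all of these receptors, whereas Pros1 acts through Mertk and Tyro3. Mertk is a constitutive receptor of resting microglia and tissue macrophages, Axl is induced by interferon and inflammation, and TAM signaling dampens Toll-like receptor and interferon responses. Apoe rises in microglia that leave the resting state in tumors and in neurodegeneration, and its share of UMIs serves here as the axis along which the receptors were compared.

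The promoters of both receptors that were followed and of the ligand Gas6 are shown for orientation, since the report turns on these genes. Each is the 250 bases before the RefSeq start site (GRCm38.p6), in the direction of transcription, with motif matches in capitals. All 5 members were found in the RefSeq table. The Axl window lies at chr7:25788734-25788983 on the minus strand, the Mertk window at chr2:128698665-128698914 on the plus strand and the Gas6 window at chr8:13494536-13494785 on the minus strand.
Axl: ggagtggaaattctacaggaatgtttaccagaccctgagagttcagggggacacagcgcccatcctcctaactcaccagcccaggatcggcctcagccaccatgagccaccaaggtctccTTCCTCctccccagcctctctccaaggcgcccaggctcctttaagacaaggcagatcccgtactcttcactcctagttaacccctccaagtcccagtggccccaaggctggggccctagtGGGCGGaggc
Mertk: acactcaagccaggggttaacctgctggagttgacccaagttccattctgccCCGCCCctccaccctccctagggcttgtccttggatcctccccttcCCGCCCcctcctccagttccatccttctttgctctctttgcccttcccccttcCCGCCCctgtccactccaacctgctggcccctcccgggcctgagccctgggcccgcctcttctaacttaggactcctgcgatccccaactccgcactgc
Gas6: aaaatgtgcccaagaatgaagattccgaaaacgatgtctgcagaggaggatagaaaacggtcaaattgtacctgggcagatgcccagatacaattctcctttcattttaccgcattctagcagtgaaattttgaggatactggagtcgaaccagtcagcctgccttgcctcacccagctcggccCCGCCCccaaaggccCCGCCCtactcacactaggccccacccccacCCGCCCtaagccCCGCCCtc

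Both strands were searched for 6 motifs. The GC box GGGCGG matched 1 time in the Axl, 3 times in the Mertk and 4 times in the Gas6 window, against 32.7% of 32851 promoter windows with at least 1 match. The PU.1 core GAGGAA, bound by a myeloid master factor, matched 1 time in Axl and in neither of the others (23.3% of windows). In these 3 windows no match was found for the AP-1 site TGANTCA (6.75% of windows), the STAT site TTCNNNGAA (7.02%), the interferon-stimulated response element (2.98%) or the DR4 element of LXR (0.0213%). A match is a run of letters, not a bound site. In the GENCODE M21 annotation of GRCm38, Axl spans chr7:25757273-25788705 and Tyro3 chr2:119797733-119818104, and neither overlaps another gene. Pros1 spans chr16:62854307-62929346 and also overlaps none. Mertk (chr2:128698956-128802894) holds the small gene models Gm14011 and Gm23172, and Gas6 (chr8:13465374-13494490) overlaps Tmem255b on the other strand.

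The matrix held 40411 barcodes and 105560763 UMIs, with 9745192 to 24393841 UMIs per library and medians of 1536 to 3503 UMIs per barcode. The limits of the study, over 200 and at most 2500 genes and under 5% mitochondrial UMIs, kept 38751 barcodes. The libraries shared cell barcodes. Of 29579 distinct barcode sequences, 3890 occurred in more than 1 library and 490 in all 6 libraries. For these 490, the log UMIs of the same sequence correlated between libraries with r of 0.75 to 0.95 and the Apoe share with r of 0.95 to 0.99. Of the passing cells, 14489 (37.4%) carried a shared sequence, and the share rose from 7.73% of microglia with Apoe under 0.1% to 82.9% of those with Apoe of at least 4%. Shared microglia were shallower, with a median of 927 UMIs against 3107 in microglia whose sequence occurred in 1 library. The part that shared barcodes play in a result was not tested. Over all cells, agreement between libraries is not read as independent replication, and counting intervals treat each barcode as a separate cell. Each result is given for all cells and, as an alternative chosen after seeing the data, for cells with a sequence found in 1 library, called single-library cells.

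Over the passing cells, Pros1 was the most abundant member with 21677 UMIs, or 227 CPM (UMIs of the gene per 1000000 UMIs of the cells). Mertk had 18138 UMIs (190 CPM), Gas6 12566 (132 CPM) and Axl 5877 (61.5 CPM). Tyro3, the TAM receptor of neurons, had 8 UMIs in 8 cells and is not followed further. At least 1 UMI of Mertk was found in 33.5% of cells, of Pros1 in 38.0%, of Gas6 in 21.1% and of Axl in 11.4%.

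Gated microglia were most of the passing cells and held most of the receptor and ligand transcripts. They had 4659 of the 5877 Axl UMIs and 17453 of the 18138 Mertk UMIs of passing cells. The gate required Tmem119, P2ry12, Gpr34, Selplg, Olfml3 and Cx3cr1 together to make up at least 0.5% of a cell's UMIs and left out cells of any other lineage gate. It kept 35233 cells, 90.9% of those passing. Microglial markers that the gate did not use, Fcrls, Sall1, Siglech, P2ry13 and Sparc, summed to 5025 CPM in them, against 324 CPM in monocytes. The sum of 5 T and B cell markers was 0.503 CPM, which says little about the gate, since SCID mice lack these cells. Over the Apoe bins of gated microglia, granulocyte markers summed to 190 to 204 CPM and border macrophage markers to 105 to 144 CPM. Mertk stood at 199.6 CPM (95% Poisson interval 197 to 203; 174 to 253 over 6 libraries, median 196). Pros1 stood at 232 CPM (207 to 254 over libraries) and Gas6 at 129 CPM (89.4 to 195). Axl was lowest at 53.3 CPM (51.8 to 54.8; 34.4 to 69.6 over libraries). In captured UMIs, the highest library for Axl was thus below the lowest for Mertk. Intervals cover counting error only. In single-library microglia (22464 cells), Mertk was at 199.6, Axl at 45.5, Gas6 at 146 and Pros1 at 245 CPM.

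In the other gated lineages Mertk had 1 to 5 UMIs per group, Pros1 was found in monocytes and dendritic cells, and Gas6 in choroid plexus, with lower counts in granulocytes and NK cells. The other gates required UMIs of lineage genes and microglial genes under 0.5% of UMIs. A further 185 cells of 1 lineage gate had more microglial RNA than this, 50 cells met more than 1 gate, and both sets were left out. In classical monocytes, gated on Ly6c2, Axl was at 33.6 CPM (26 UMIs in 175 cells, 95% interval 22.0 to 49.2) and Mertk at 3.88 CPM (3 UMIs, at most 11.3). The monocyte interval of Mertk lay far below the 174 CPM of the lowest library of microglia. Pros1 was at 86.6 CPM in monocytes (67 UMIs, 67.1 to 110), and Gas6 at 3.88 CPM (3 UMIs). The 167 single-library monocytes had Axl at 35.1, Mertk at 4.05 and Pros1 at 86.4 CPM. Monocyte-derived dendritic cells, gated on Cd209a without Ly6c2, carried Pros1 at a like level, 88.4 CPM (24 UMIs in 52 cells, 56.6 to 131). They had no Axl UMI, where 3 counts would give 11.04 CPM, and 1 UMI each of Mertk and Gas6.

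Choroid plexus cells, the epithelium that makes cerebrospinal fluid, had Gas6 as their only abundant member. Gas6 was at 286 CPM (123 UMIs in 197 cells, 237 to 341), with 196 to 428 CPM over 4 libraries. That range lay above the microglial range, though its lowest library was next to the highest microglial library at 195 CPM. Axl and Mertk had 5 UMIs each there, and Pros1 had 4. With microglial genes held under 0.1% of UMIs, Gas6 was at 300.1 CPM in 175 choroid plexus cells, with 2, 1 and 1 UMIs of Axl, Mertk and Pros1. The 143 single-library choroid plexus cells had Gas6 at 274 CPM.

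NK cells showed Axl at 61.0 CPM (18 UMIs in 132 cells), Gas6 at 54.3, Pros1 at 33.9 and Mertk at 10.2 CPM. These levels depended on the limit set for microglial RNA. In the 61 NK cells with microglial genes under 0.1% of UMIs, Axl, Mertk and Gas6 had 0 UMIs, where 0 of 61 cells allows a share of up to 4.92% of cells with a UMI, and Pros1 had 1 UMI. With no limit on microglial genes, Mertk in NK cells was at 78.8 CPM. The monocyte level of Axl was, by contrast, 29.6 CPM in the 136 monocytes under the same 0.1% limit, with Mertk at 2 UMIs. Granulocytes were few and shallow (56 cells, median 887.5 UMIs) with 0 Axl, 1 Mertk, 6 Gas6 and 6 Pros1 UMIs, which is 76.4 CPM (28.0 to 166) for each ligand. Without the limit on microglial genes Mertk was at 73.2 CPM in granulocytes and 81.8 CPM in choroid plexus. Under the border macrophage gate only 3 cells were found, so that no level is given for these cells. By Axl level the order of the gated groups was NK cells, microglia, monocytes, choroid plexus, then dendritic cells and granulocytes at 0. Neighbours in this order overlapped in their intervals except microglia and monocytes, NK cells also overlapped monocytes, and granulocytes (at most 47.0 CPM) overlapped all groups but microglia. These intervals cover counting error only. Over libraries microglial Axl ran from 34.4 to 69.6 CPM, which overlapped the intervals of monocytes and granulocytes. Under the 0.1% limit NK cells were at 0 (at most 32.0 CPM), so their first place did not hold.

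**Figure D1:**
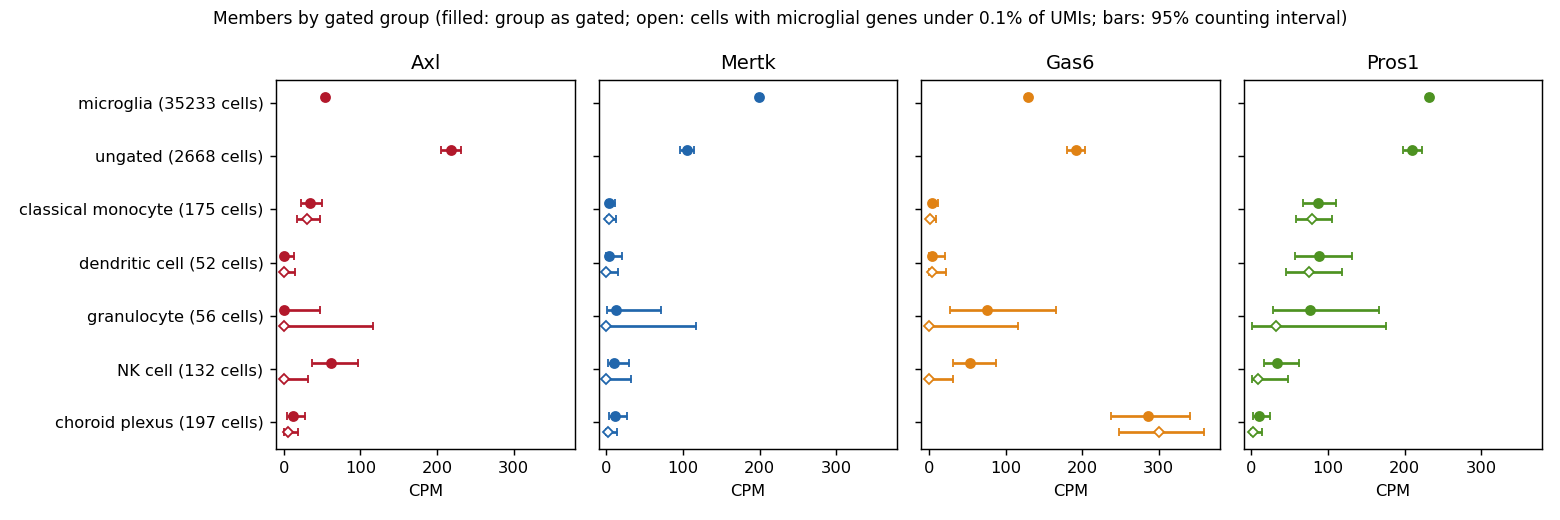
CPM of Axl, Mertk, Gas6 and Pros1 (x axis, linear) in each gated group of cells (y axis) over all cells, with 95% counting intervals as bars. Filled points are the groups as gated, and open points are cells with microglial genes under 0.1% of UMIs. Mertk is high only in microglia and in ungated cells, and Gas6 also in choroid plexus. The open points of NK cells and granulocytes lie at 0 for Axl, Mertk and Gas6.

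Cells that met no gate were a further source of Axl. These 2668 cells had too few microglial gene UMIs for the microglia gate, yet the 5 unused microglial markers summed to 2440.1 CPM in them, between the levels of gated microglia and monocytes. Classical monocyte check markers (Vcan, Ms4a4c, Hp and Gsr) also lay between, at 153.8 CPM against 38.8 in gated microglia and 1640.3 in monocytes. Axl was at 218 CPM (194.5 to 249.6 over 6 libraries), 4.10-fold its microglial level. Mertk was at 105 CPM (75.9 to 142), 0.528 of the microglial level. A gene was called where the pooled CPM differed at least 1.5-fold and in the same direction in every library with at least 20 cells of both groups, among genes with a mean of at least 10 CPM. Here 7.68% of 7458 genes were called higher, Axl among them, and 6.57% lower, Mertk among them. Of the ungated cells 60.8% carried a shared barcode. By Apoe, 1503 of the 2668 were at 4% or more of UMIs and 509 at 2 to 4%. Among the 35233 gated microglia 4640 and 4690 cells were in these ranges, so the ratios set Apoe-rich cells against all microglia. Gas6 was at 192 CPM, a ratio of 1.49 that was not called, and without library 5 it was at 138 CPM. Among single-library cells (7.85% called higher and 7.26% lower) the ratios were 4.56 for Axl, 1.83 for Gas6 and 0.400 for Mertk, all called. These cells were set apart by low microglial genes, so the values describe a remainder of the gates and not a cell type.

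Within microglia, Axl rose and Mertk declined as Apoe took a larger share of UMIs. In the lowest bin, with Apoe under 0.1% of UMIs, Axl was at 18.5 CPM (15.6 to 28.9 over 6 libraries). It was then at 21.7 CPM for 0.1 to 0.25%, at 28.8 for 0.25 to 0.5%, at 36.8 for 0.5 to 1%, at 64.6 for 1 to 2% and at 112 for 2 to 4%. In the highest bin, with Apoe of at least 4%, Axl reached 174 CPM (151 to 211). The lowest library of the highest bin thus lay far above the highest library of the lowest bin. Mertk moved the other way over the same bins, from 225 CPM (207 to 267) through 219, 213, 199, 172 and 169 to 166 CPM (149 to 179). The highest bin of Mertk thus lay below the lowest bin in every library, with little difference among the 3 highest bins.

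In single-library cells the decline of Mertk went on to the end of the axis. There Mertk was at 225 CPM (207 to 265) in the lowest bin and at 168, 152 and 113 CPM (99.9 to 132) in the 3 highest bins. Axl was at 19.0 CPM (15.9 to 30.0) in the lowest and at 185 CPM (148 to 229) in the highest bin. In the highest bin Axl was above Mertk in each of the 6 libraries of this set, since the lowest Axl value exceeded the highest Mertk value. Over all cells Axl was above Mertk in libraries 1, 3, 4 and 6 of that bin. It was below Mertk in library 2 (151 against 179 CPM) and library 5 (163 against 167 CPM). Capture may differ between the genes, so this order is one of UMIs only.

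**Figure D2:**
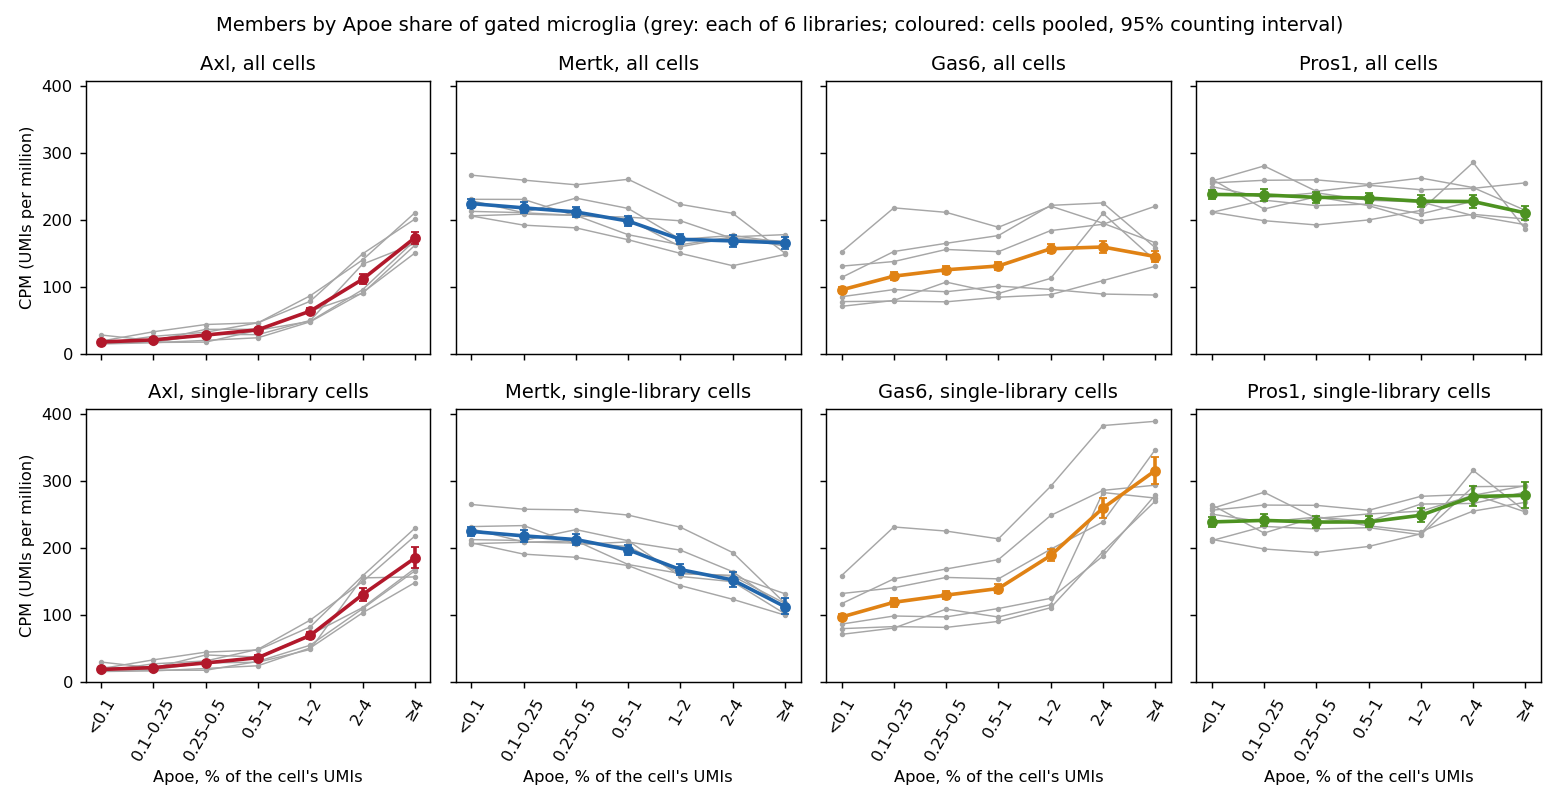
CPM (y axis) of Axl, Mertk, Gas6 and Pros1 in gated microglia by Apoe as percent of the cell's UMIs (x axis, 7 bins), for all cells in the upper and single-library cells in the lower row. Grey lines are the 6 libraries and coloured lines the pooled cells with 95% counting intervals. Axl climbs from 18.5 to 174 CPM in the upper row, Mertk ends below its start in every library, and Gas6 ends at 146 CPM in the upper and 316 CPM in the lower row.

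The contrast of microglia with Apoe of at least 2% (9330 cells) against those with Apoe under 0.25% (11092 cells) put numbers on these trends. By the same rule 5.31% of 7382 genes were called higher and 5.58% lower. Axl was at 16.2, 17.9, 20.3, 20.7, 24.9 and 25.8 CPM in the 6 libraries at low Apoe and at 121, 126, 134, 149.6, 171 and 173 CPM at high Apoe, each list in rising order. The groups did not overlap, and neither did those of Mertk given below. The share of all tested genes without overlap was not computed. The pooled ratio of Axl was 7.17 (95% counting interval 6.55 to 7.85; 5.08 to 8.28 over libraries), called higher. Only 0.420% of tested genes had a ratio as high. Mertk was at 201, 208, 212, 222, 231 and 265 CPM at low and at 139.6, 169, 171, 172, 177 and 181 CPM at high Apoe. Its ratio was 0.755 (0.722 to 0.789) and it was lower in 6 of 6 libraries, but under the 1.5-fold limit, so it was not called. For any fold, 15.4% of tested genes were higher and 25% lower in all 6 libraries. Of microglia with Apoe of at least 2%, 77.5% carried a shared barcode, against 9.94% of those under 0.25%. The library values at high Apoe may thus not be independent.

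The ligands differed from each other and depended on which cells were kept. Gas6 was at 153 CPM at high and 104 CPM at low Apoe, a ratio of 1.47 that was higher in 4 of 6 libraries and not called. Pros1 was at 219.9 and 238 CPM, a ratio of 0.923, lower in 4 of 6 libraries. In single-library cells (2099 at high and 9990 at low Apoe), Gas6 was at 221 to 385 CPM at high and 74.4 to 193 CPM at low Apoe, which did not overlap. Axl and Mertk did not overlap in this set either, and the share of all genes without overlap was not computed. The Gas6 ratio was then 2.66 (2.52 to 2.81), higher in 6 of 6 libraries and called, with 4.63% of 7327 genes called higher and 5.24% lower in that set. Gas6 in shared microglia was itself low, at 45.8 CPM, and it was at 17.6 to 41.6 CPM where 3 or more libraries held the sequence. With the microglia gate raised to 1% of UMIs the Gas6 ratio over all cells turned to 0.883.

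In the single-library set the ratio of Axl was 7.56 (6.84 to 8.36) and it was called higher. Mertk was at 137 CPM at high and 222 CPM at low Apoe, a ratio of 0.617 (0.578 to 0.658) that was called lower. Pros1 was at 278 and 239.9 CPM, a ratio of 1.16 (1.10 to 1.21), higher in 6 of 6 libraries but not called. For any fold, 9.36% of genes were higher and 26.1% lower in all 6 libraries of this set. The median tested gene had a log2 ratio of -0.14 in this set. Relative to that gene the ratios were 8.32 for Axl, 2.93 for Gas6, 1.27 for Pros1 and 0.679 for Mertk, so Mertk then missed the 1.5-fold limit.

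Depth and the marker sums of some other cell types moved along the same axis. Median UMIs per cell were 2705 in the lowest and 1184 in the highest bin over all cells, and 2757 and 3810.5 in single-library cells, so depth moved in opposite directions in the 2 sets. The 6 genes of the microglia gate fell from 1.60 to 0.886% of UMIs over all cells. Their unused counterparts from Fcrls to Sparc went from 5356 to 3557 CPM. Classical monocyte check markers (Vcan, Ms4a4c, Hp and Gsr) summed to 29.4 CPM in the lowest and 82.0 in the highest bin, and border macrophage check markers, of which Cd209f was at 0, to 106 and 144 CPM. Monocytes themselves had 1640.3 and 388 CPM of these lists. The part of such cells in the results was not tested.

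The balance between the receptors was read as the Axl share, the percent of Axl and Mertk UMIs that were Axl. Capture may differ between the genes, so only the change of the share is read. Over all microglia the Axl share was 21.1% (exact binomial 95% interval 20.5 to 21.6). It was 7.61% (6.86 to 8.43) in the lowest Apoe bin and 9.02, 11.9, 15.6, 27.3 and 39.8% in the following bins. In the highest bin it was 51.1% (49.2 to 53.0), with 45.8 to 58.6% over libraries. The 6 libraries spanned 7.005 to 11.9% in the lowest bin, so no library of the highest bin came near. In single-library cells the share went from 7.78% (interval 7.001 to 8.62) to 62.2% (58.9 to 65.3), with 55.8 to 68.6% over libraries. Between Apoe under 0.25% and at least 2% it went from 8.16 to 45.8% over all cells and from 8.27 to 52.5% in single-library cells. Most of this change lay in Axl, with ratios of 7.17 and 7.56 in the 2 sets, against 0.755 and 0.617 for Mertk. In ungated cells, by contrast, the share was 60% (38.7 to 78.9) in the lowest bin, on 15 Axl and 10 Mertk UMIs. It was 68.3% (65.2 to 71.2) in the highest bin and 47.1 to 72.6% in those between. Single-library ungated cells had 70.0% in the lowest and 75.1% in the highest bin.

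**Figure D3:**
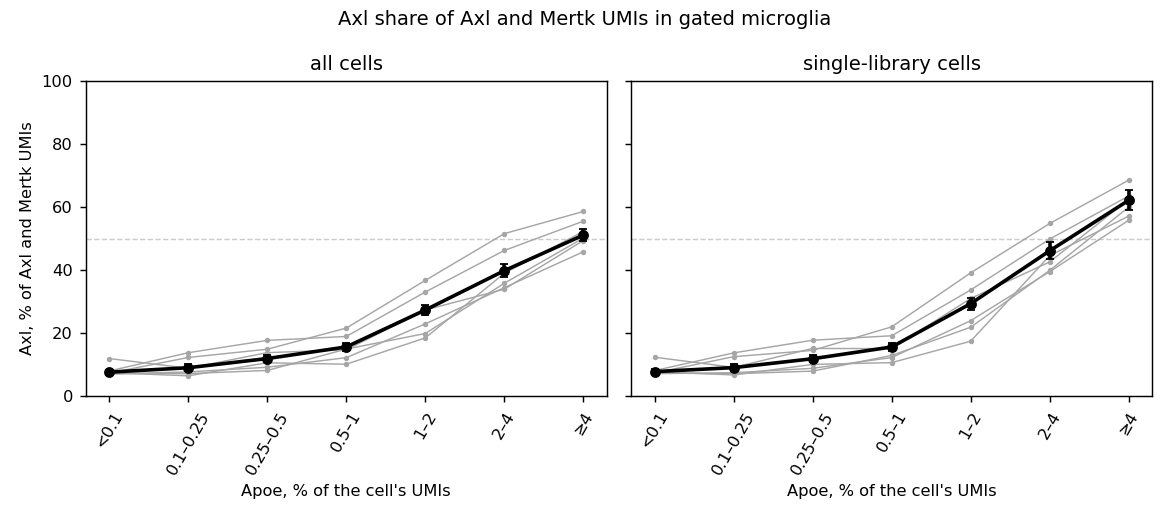
Axl UMIs as percent of Axl and Mertk UMIs (y axis) in gated microglia by Apoe as percent of the cell's UMIs (x axis), for all cells and single-library cells. Grey lines are the 6 libraries, black points the pooled cells with exact binomial 95% intervals, and the dashed line marks equal UMIs. The pooled share passes from 7.61 to 51.1% in all cells and from 7.78 to 62.2% in single-library cells.

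Whether both transcripts lay in the same cells was examined in microglia thinned to 1000 UMIs each, which left out 7973 shallower cells, 673 of them single-library. An Axl UMI was found in 2.03% of cells in the lowest and 15.4% in the highest Apoe bin, and a Mertk UMI in 19.2 and 16.7%. Unthinned shares were 4.33 and 22.6% for Axl and 42.6 and 23.5% for Mertk, at the depths given above. For comparison, monocytes had a Mertk UMI in 1.71% of cells at a median of 4486 UMIs. In single-library cells the thinned shares were 1.78 and 16.1% for Axl and 19.8 and 9.36% for Mertk. Of 27260 thinned cells, 209 had both transcripts, 1171 only Axl and 4687 only Mertk. Mertk was found in 15.1% (13.3 to 17.1) of cells with an Axl UMI and in 18.1% of cells without. This pooled difference mixes Apoe bins. Within bins, in rising order of Apoe, the shares were 20 and 19.2%, 18.2 and 18.9%, 17.2 and 20.6%, and 13.5 and 17.9%. From 1% Apoe up they were 14.4 and 15.4%, 13.4 and 15.1%, and 14.7 (11.5 to 18.4) and 17.1%. Cells with Axl had the higher share only under 0.1% Apoe, but the interval held the other share in every bin. Among single-library cells the pooled shares were 12.95 and 18.1%, with 111 cells positive for both, and 16.5 against 16.3% at 1 to 2% Apoe. The counts are sparse, and cells with both transcripts were found in every Apoe bin.

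Of 7 microglial states, gated on genes other than the members, Axl was called higher in 5. The pooled Mertk level was below that of other microglia in all 7, but over all cells it was called lower only in mitosis. The states share the same reference cells, and the share of all genes with such counts over the states was not computed. Each state was set against the 31457 microglia in none of the 7 states, where Axl was at 42.1, Mertk at 208, Gas6 at 113 and Pros1 at 226 CPM. The gates need UMIs of their genes, and the median depth was 2481 to 4163 UMIs in the states against 2345 in the other cells. Interferon microglia (389 cells with UMIs of Ifit1, Isg15, Rsad2 and like genes) had Axl at 210.5 CPM, a ratio of 5.00 (4.44 to 5.62; 3.33 to 6.01 over 5 libraries with at least 20 cells), called higher. Of 7338 tested genes 5.55% were called higher and 5.71% lower. Gas6 was also called higher at 248 CPM, with a pooled ratio of 2.19 that lay above the 1.42 to 2.07 of the single libraries. Mertk was at 147 CPM, a ratio of 0.709 that was not called. Single-library interferon microglia (5.55% of genes called higher and 5.32% lower) had ratios of 6.15 for Axl and 2.01 for Gas6, both called.

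This difference was present at each level of Apoe. Below 0.5% Apoe, interferon microglia had Axl at 131 CPM against 19.5 in cells of no state, a ratio of 6.72 (4.97 to 8.90). Between 0.5 and 2% the ratio was 5.80 and at 2% or more it was 2.04 (255 against 125 CPM). Without shared barcodes the 3 ratios were 6.77, 5.76 and 1.88. Axl was thus high in interferon microglia with little Apoe, and its distance from other cells shrank where Apoe was high.

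Spp1 microglia (878 cells with at least 5 UMIs of osteopontin, a phagocyte cytokine) had Axl at 197 CPM, a ratio of 4.69 (3.64 to 5.89 over 6 libraries), called higher beside 4.55% of genes higher and 4.79% lower. They were Apoe-rich, with 84.3% of cells at 2% or more. Within that Apoe range the Axl ratio was 1.70, and 1.35 in single-library cells. Mertk was at 144 CPM, a ratio of 0.693 that was not called. In single-library Spp1 cells (349) Mertk was called lower at 0.586 and Gas6 higher at 2.29, beside 6.59% of genes lower and 6.28% higher, over 4 libraries. Over all cells Gas6 had a ratio of 1.90 but was lower in 1 of 6 libraries and not called.

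Microglia with Lpl and Fam20c, genes of lipid uptake and secretory phosphorylation (180 cells), had Axl at 190 CPM, a ratio of 4.52 (3.20 to 6.41 over 5 libraries), called higher beside 4.61% of genes higher and 5.87% lower. Of these cells 57.2% had Apoe at 2% or more. Their Axl ratio was 7.34 under 0.5% Apoe (20 Axl UMIs), 2.79 at 0.5 to 2% and 2.03 at 2% or more. Without shared barcodes these ratios were 7.58, 2.44 and 1.96. Mertk was at 172 CPM, a ratio of 0.827 that was not called. Microglia with Ccl2 and Ccl12, monocyte-attracting chemokines (2005 cells), had Axl at 104 CPM and Gas6 at 254 CPM. The ratios were 2.47 for Axl (1.77 to 3.03 over 6 libraries) and 2.25 for Gas6 (1.85 to 2.34), both called higher beside 3.06% of genes higher and 1.67% lower. Mertk, at 149 CPM, had a ratio of 0.719 and Pros1 of 1.23, neither called. Single-library cells with Lpl and Fam20c had an Axl ratio of 5.12 over 3 libraries, called beside 7.98% of genes higher and 8.86% lower. Those with Ccl2 and Ccl12 had ratios of 3.01 for Axl and 1.97 for Gas6, both called beside 3.14% of genes higher and 1.47% lower. MHC class II microglia (414 cells) had Axl at 104.5 CPM, a ratio of 2.48 over 4 libraries, called higher beside 1.68% of genes higher and 3.35% lower. Without shared barcodes that ratio was 2.59 over 2 libraries, called beside 3.24% of genes higher and 5.56% lower. Of the MHC class II cells 40.1% had Apoe at 2% or more. In the same Apoe ranges, in rising order, their Axl ratios were 1.93, 2.06 and 1.40. Without shared barcodes these were 1.85, 2.08 and 1.02.

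In mitotic microglia Mertk was called lower and Axl was not called. Microglia in mitosis (179 cells with Top2a, Mki67 and like genes) had Mertk at 101 CPM against 208, a ratio of 0.488 (0.381 to 0.615; 0.388 to 0.622 over 5 libraries), called lower beside 7.78% of genes. Pros1 was at 340 CPM, a ratio of 1.503 that was called higher, beside 18.7% of genes, and Axl was at 52.8 CPM, a ratio of 1.25 with an interval of 0.881 to 1.73. Relative to the median tested gene, whose log2 ratio was 0.20, the ratios were 0.425 for Mertk and 1.31 for Pros1. Among single-library cells (18.9% of genes called higher and 7.45% lower) Mertk had a ratio of 0.445 and was called lower, and Pros1 at 1.42 was not called. The Mertk ratio was 0.485, 0.454 and 0.461 in mitotic cells with Apoe under 0.5%, of 0.5 to 2% and of at least 2%, on 51, 14 and 6 Mertk UMIs. Microglia in DNA replication (486 cells with Mcm and like genes) had Mertk at 153 CPM, a ratio of 0.736, and Axl at 59.5 CPM, a ratio of 1.41. Neither was called over all cells, beside 12.4% of genes higher and 3.29% lower. Among single-library cells Axl was called higher at 1.74, beside 12.7% of genes higher and 3.06% lower.

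**Figure D4:**
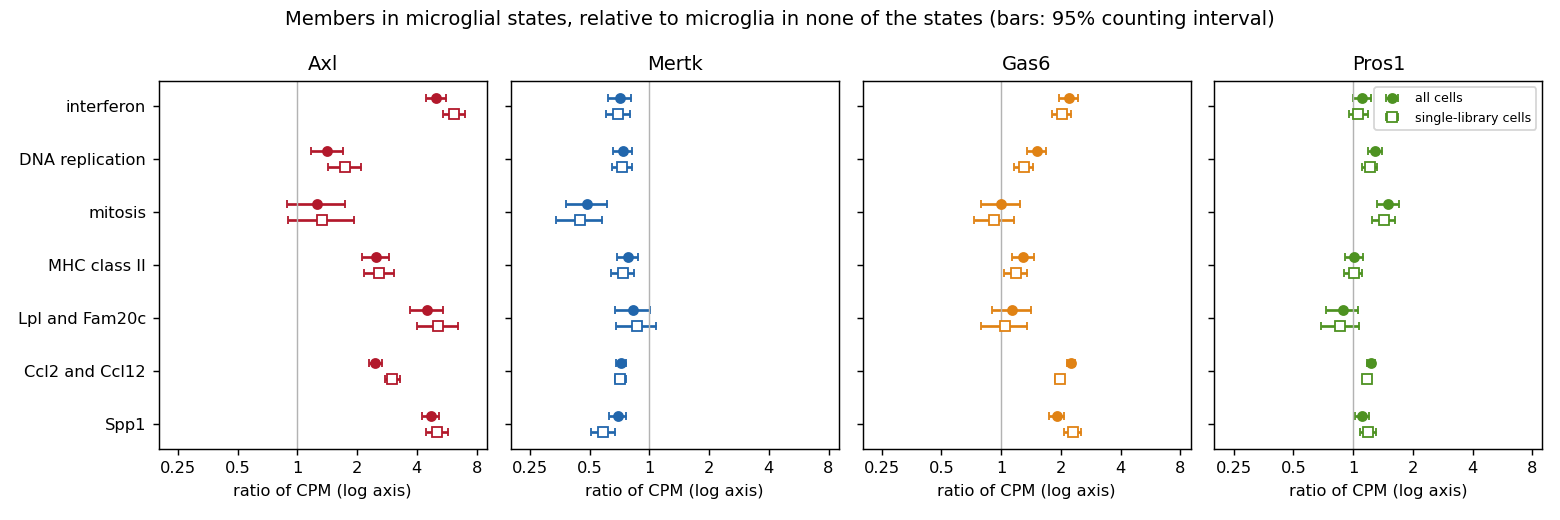
Ratio of CPM (x axis, log scale) of Axl, Mertk, Gas6 and Pros1 in each of 7 microglial states (y axis) to microglia in none of them, with 95% counting intervals. Filled circles are all cells and open squares single-library cells. Axl lies furthest right in the interferon, Spp1 and Lpl and Fam20c states, and Mertk lies furthest left in mitosis at 0.488.

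Some other genes of the pathway passed the call along the Apoe axis, and most of those tested did not. Of 17 partners of the TAM receptors (enzymes that carboxylate the ligands, sheddases, feedback genes and the LXR branch), 11 passed the level of 10 CPM. The calls below stand beside the 5.31% of all tested genes called higher and 5.58% lower, or 4.63 and 5.24% in single-library cells. Abca1 (77.5 against 40.3 CPM, ratio 1.93) and Abcg1 (93.7 against 53.1 CPM, ratio 1.77), cholesterol exporters controlled by LXR, were called higher. Ggcx, the carboxylase of Gas6 and Pros1, was called lower (9.44 against 14.4 CPM, ratio 0.654). The remaining 8 were not called, and the median log2 ratio of the 11 was 0.22 against -0.06 over all tested genes. Among single-library cells Abca1 (2.12) and Abcg1 (1.54) were again called higher and no gene of the list lower, with a median of 0.04 against -0.14. Of 32 genes for the clearance of dying cells, 18 passed the level. Cd300lf, a lipid-binding inhibitory receptor, had a ratio of 7.18 (62.3 against 8.67 CPM), and Anxa5, which binds phosphatidylserine, of 4.72 (70.5 against 14.9 CPM). Both were called higher and none lower, and the list's median log2 ratio was -0.06, as was that of all genes. In single-library cells, where 17 passed, Cd300lf (5.67) and Anxa5 (2.18) were again called higher. Elmo1, part of the engulfment machinery (0.535), and Mfge8, a bridging protein for integrins (0.631), were called lower.

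Genes with the most similar pattern were found over the 42 profiles of library and Apoe bin with at least 50 cells, as Pearson r of log2(CPM + 1) centred within libraries, among 2691 genes of at least 50 CPM. The profiles share libraries and follow 1 axis, so that high values are common. For Axl the highest included Rpl13 (r 0.984), Rpl14, Cd63 and Ctsb (0.980). For Mertk they were Celf2 (0.897), Sirpa, Txnip, Ivns1abp and Pnp (0.881), and for Gas6 Naaa (0.890), Cox6a1, Cox8a, Rpl28 and Rps15a (0.845). In single-library cells (40 profiles) they were Ctsb (0.982), Rps27a, Cd63, Lyz2 and Cd72 for Axl, and Gpr34 (0.962), Arhgap5, Selplg, P2ry12 and Ivns1abp for Mertk, of which Gpr34, Selplg and P2ry12 are genes of the microglia gate. For Gas6 they were Fcgr2b (0.966), Tspo, Ccl2, Ms4a6c and Cxcl16. Axl correlated with Mertk at -0.86 over all cells and -0.92 in single-library cells, and with Gas6 at 0.64 and 0.95. Ctsb and Cd63, lysosomal genes, were among the 5 genes most like Axl in both sets, and Ivns1abp was the only gene in both lists for Mertk.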

How the data were processed

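CD45+ cells were enriched on Percoll, sorted and loaded on the 10x Chromium 3′ v2 kit, and libraries were sequenced in 3 batches whose members the sources used here do not name. Per the labels and the matrix header, the authors used Cell Ranger 3.1.0 (STAR aligner, mm10), aggregated the 6 libraries without batch correction and deposited raw counts of UMIs per gene and barcode, before filtering. The deposited counts were used as 1 pooled sample, since groups were taken from the GEO labels, which tie no suffix to a mouse. IL-33 and control mice were not compared here, and batches were not examined. No column of per-sample values was left out (0 columns).

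Kept barcodes had under 5% mitochondrial UMIs, more than 200 genes and no more than 2500. The gene limit was the only treatment of doublets, beside leaving out cells of 2 lineage gates, and no caller was run. Gates on raw UMIs required at least 4 UMIs of 2 genes for border macrophages (Mrc1, Cd163, Pf4, F13a1, Lyve1, Cbr2), monocytes (Ly6c2, Ccr2, Plac8, Chil3, with at least 1 Ly6c2 UMI) and dendritic cells (Cd209a, Flt3, Ccr2, Clec10a, with Cd209a and without Ly6c2), 10 for granulocytes (S100a8, S100a9, Ngp, Camp, Retnlg, Ly6g), 5 for NK cells (Gzma, Nkg7, Ncr1, Klrb1c, Klre1, Prf1) and 3 for choroid plexus (Enpp2, Sostdc1, Folr1, Kcnj13, Clu, Igfbp2). Levels are summed UMIs per 1000000 UMIs with exact Poisson intervals, shares have Clopper-Pearson intervals, and ratios have conditional exact intervals, all at 95% and for counting error only. Depth per library ranged from 9745192 to 24393841 UMIs. Genes named beyond the members were those of 2 lists past 1.5-fold, at most 4 per direction, and the 5 genes of highest likeness to Axl, Mertk and Gas6. A few genes that these rules and the marker lists cover are not reported here, and marker sums leave them out. Members and lists were chosen with earlier results of these data known and support nothing. No test between mice was made and no p-value was computed.

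On simulated counts for the Apoe contrast with 7388 genes, the call recovered 100% of 100 genes raised 2-fold and 99% of 100 genes lowered to 0.5, and called 0% of the unchanged genes. These counts were Poisson draws from the low-Apoe profile of each library, with no spread between cells and no shared barcodes. The simulation thus covers counting error only and gives no error rate for the real calls. Python 3.11.15, numpy 2.4.6, scipy 1.17.1 and pandas 2.3.3 were used. Alternatives were other gates, filters, depth ranges, denominators and bins, each library left out in turn and, added after the data were seen, single-library cells and ratios relative to the median gene.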

Additional observations from a re-analysis of the deposited data

Results flagged for a closer look

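Barcodes outside the filters also carried the receptors. In 891 barcodes with over 2500 genes and under 5% mitochondrial UMIs, Axl was at 82.0 CPM (95% counting interval 76.2 to 88.2) and Mertk at 164 CPM (156 to 173). In 760 barcodes with 5% or more mitochondrial UMIs and at most 2500 genes, Axl was at 152 CPM (130 to 177) and Mertk at 91.6 CPM (74.7 to 111), so that Axl made up 62.4% of their Axl and Mertk UMIs. These values were singled out because the comparisons did not use these barcodes and the levels were above what 3 counts would give, 0.337 and 2.70 CPM.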

How the results depend on the processing

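The Axl ratio between high and low Apoe stayed at 6.26 to 8.32 under the alternatives run, and at 6.96 to 7.54 with each library left out. The Mertk ratio, 0.755 over all cells, was 0.827 with the microglia gate at 1%, 0.617 in single-library cells, 0.612 in those with at least 1000 UMIs and 0.679 in single-library cells relative to the median gene. For Gas6 these 4 settings gave 0.883, 2.66, 2.69 and 2.93 against 1.47, and for Pros1 the last 3 gave 1.16, 1.15 and 1.27 against 0.923. The Axl share at high Apoe was 35.2% at the 1% gate, 52.5% in single-library cells and 52.8% in those with at least 1000 UMIs. Without a limit on microglial genes Mertk was at 13.5 CPM in monocytes and 78.8 in NK cells, and with the 0.1% limit Axl and Mertk were at 0.0 CPM in NK cells. Mertk in ungated single-library cells was at 79.8 CPM. Axl in monocytes ranged from 26.2 (without library 1) to 39.4 CPM with each library left out. In cells with 1000 to 4000 UMIs, the Axl ratio was 1.14 for DNA replication, 1.90 for mitosis, 5.90 for Lpl and Fam20c and 5.84 for Spp1, and the Mertk ratio 0.818 for DNA replication and 0.829 for Ccl2 and Ccl12. In single-library cells the Axl ratio of DNA replication was 1.74. Mertk was found in 7.23% of cells with Axl and 9.69% without at 500 UMIs, and in 12.95% of single-library cells with Axl. The cause of these changes was not tested. No paired analysis was possible between mice because barcode suffixes carry no replicate number of the labels and no test was run. The ratios and calls per library did set cells of the same library against each other. The aggregated depth limits Tyro3 and the small groups, where 1 UMI moves a level by several CPM.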

Other observations

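Gas6 levels of the libraries are given here singly. In single-library microglia with Apoe under 0.25% it was at 81.0, 90.8, 74.4, 132, 193 and 136 CPM in libraries 1 to 6. With Apoe of at least 2% it was at 229.9, 221, 280.2, 289, 385 and 277 CPM in the same order. Every library was thus higher at high than at low Apoe. Mertk at low Apoe had its lowest value in library 4 (201 CPM) and its highest in library 3 (263 CPM). These are values of libraries, which were not assigned to groups here.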
